A study of Mus musculus with 30 samples.

Results

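The neurotrophins and their receptors were followed in whole mouse lung over 6 d in low oxygen. Of the 5 genes listed (Ntrk2, Ntrk3, Ngfr, Bdnf and Ntf3), 4 had probe sets that the array annotation ties to that gene symbol alone. A probe set is a group of short oligonucleotides that together measure 1 transcript. These 4 genes are among 15965 genes on the arrays and had 11 of 36899 probe sets, namely 5 for Ntrk2, 3 for Ntrk3, 2 for Bdnf and 1 for Ngfr. Ntf3 was not analysed here. The set was chosen from measured values: Ntrk2 came forward for its low signal at 4 d against the group titled Norm, and the other genes were added as its ligands and relatives. The 4 d minus Norm differences are therefore given as a description, with no test, and so is every comparison of Ntrk2 with Norm.

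Neurotrophins are secreted growth factors, made as proproteins and cut to their mature form, that keep neurons alive and shape their connections. Each mature factor binds a Trk receptor tyrosine kinase, with Bdnf binding TrkB (Ntrk2) and neurotrophin-3 (Ntf3) binding TrkC (Ntrk3), and all of them bind p75 (Ngfr), a receptor without a kinase that prefers the proproteins. In the lung these genes are known from airway and vascular nerves, and from smooth muscle, endothelium and epithelium.

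Total RNA of whole lung was measured on Affymetrix MG-U74 version 2 oligonucleotide arrays, which come as 3 types (A, B and C) with different probe sets. The mice had been kept in a chamber with 10% oxygen, a way to induce pulmonary hypertension, for 10 h, 2 d, 4 d or 6 d. The fifth group is titled Norm. Its description mentions a rejection, as after a transplant, and the titles were followed. Samples 1a and 1b made up each group of 2, and each sample had 1 array of each type, 30 arrays in all. Strain, age and sex were not given in the sources used here, and every group is a whole lung of mixed cells, so that fewer cells of a type and less RNA per cell cannot be told apart. Whether 1a and 1b are different animals is not stated in the labels. The p-values thus cover the spread between these samples alone, and that spread may be technical.

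The A array titled Norm 1a was left out, because its values stand in the table of B arrays, with Spearman correlations of -0.00277 to 0.00963 to those arrays. The remaining 29 arrays gave Norm a single A array, and every A comparison with Norm rests on it. The 2 d arrays stood apart in the 3' to 5' ratio of the Gapdh control, a sign of RNA integrity, at 3.64 to 4.60 against 0.786 to 1.68 on all other arrays. Among genes that 2 array types share, the A array of Norm 1b correlated with the B array of its own sample at 0.00446 and with that of 4 d 1a at 0.165, and the A array of 4 d 1a with its own B array at -0.0249. The A array of 6 d 1b correlated with its own B array at 0.0295 and with that of 2 d 1b at 0.108. No A array passed 0.203 with the B or C array of its own sample, so the check is weak throughout. The labels of the A arrays Norm 1b, 4 d 1a and 6 d 1b are therefore in doubt, and values from them are those of the arrays so labelled. Bdnf is the only member whose tested probe set is on A. Among the other genes named, those of Egr1, Fos, Gab1, Mmp3, Pcsk5 and Sqstm1 and some of the probe sets of Mapk9, Plcg1, Pde4b and Rsad2 are on A as well. Sftpb and Sftpc, surfactant genes of alveolar type 2 cells, were above the floor on 9 of 9 A arrays. Sftpd, a further surfactant gene, was above it on 4 of 9. Sftpc read 36691 to 42808 at 2 d, 7199 on the Norm array and 3316 to 21893 on all A arrays other than those of 2 d.

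Values are the deposited intensities. Those under the 40th percentile of their array type, here called the floor (A 236.05, B 297.36, C 200.93), were raised to it before log2 was taken, and a probe set was tested where at least 2 arrays lay above it. By this rule 8 of the 11 probe sets were tested, among 25801 in all. The untested probe sets were Ntrk2 99069_at (A, 8.23 to 27.3), Ntrk3 95334_at (A, 29.5 to 162) and Bdnf 110045_at (B, 28.6 to 75.2), which lay under the floor on every array. Differences are on the log2 scale with the standard error (SE) of the limma fit.

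The stretch just before the start of Ntrk2 and of Ngfr is shown because these genes gave the most marked values below and because the study varied oxygen. Capitals mark ACGTG or GCGTG on either strand, the core letters of the hypoxia response element that HIF binds. The sequences are the 250 bases before the gene start in RefSeq (GRCm38.p6), Ntrk2 at chr13:58806319-58806568 on the plus strand and Ngfr at chr11:95587699-95587948 on the minus strand, each written 5′ to 3′ along its gene.
Ntrk2: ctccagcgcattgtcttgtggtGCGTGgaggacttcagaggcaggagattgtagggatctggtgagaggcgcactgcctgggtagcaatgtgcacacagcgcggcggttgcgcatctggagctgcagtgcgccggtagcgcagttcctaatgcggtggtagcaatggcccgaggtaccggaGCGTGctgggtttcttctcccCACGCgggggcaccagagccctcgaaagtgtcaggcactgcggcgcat
Ngfr: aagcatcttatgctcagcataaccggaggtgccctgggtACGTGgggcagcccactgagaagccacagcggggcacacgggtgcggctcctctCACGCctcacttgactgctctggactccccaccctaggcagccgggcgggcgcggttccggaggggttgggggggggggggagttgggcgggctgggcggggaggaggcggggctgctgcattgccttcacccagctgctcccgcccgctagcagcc
The Ntrk2 stretch holds GCGTG 3 times, at 228, 69 and 48 bases before the start, with the last on the opposite strand, and ACGTG 0 times. The Ngfr stretch holds ACGTG once, at 211 bases, and GCGTG once, at 157 bases on the opposite strand. Of 32851 mouse promoter stretches of the same length, 28.2% held GCGTG and 16.6% held ACGTG on either strand, so both are common words. TGACG, the core of the cAMP response element that CREB binds and a word that can share letters with ACGTG, was in neither stretch and in 17.8% of all. A match is a description of the letters, not a measured site. Bdnf has 7 such stretches in the same table, 1 for each of several known first exons, and none is printed because the arrays do not separate them.

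Bdnf, the ligand of TrkB, was bright on every A array on 102727_at and under the floor on all 10 B arrays on 110045_at, and none of its tested differences passed the threshold. Probe set 102727_at read 1939 on the 1 array labelled Norm, 3285 and 2802 at 10 h, 2437 and 1967 at 2 d, 1313 and 2835 at 4 d, and 1497 and 1744 at 6 d. Both 10 h arrays lay above the Norm array and both 6 d arrays below it, while the 4 d arrays spanned the values of nearly all other groups. In order of mean log2 intensity the groups ran 10 h (11.57 ± 0.16, SD, n = 2), 2 d (11.10 ± 0.22), Norm (10.92, n = 1), 4 d (10.91 ± 0.79) and 6 d (10.66 ± 0.16). Of the neighbours in that order only 2 d and Norm were tested against each other, and their difference did not pass. The difference from Norm was 0.65 ± 0.39 (SE) at 10 h, with a 95% interval of -0.25 to 1.54 and an adjusted p of 0.910 in limma. It was 0.18 at 2 d (adjusted p = 0.869), -0.01 at 4 d and -0.26 at 6 d (adjusted p = 0.909). From 2 d to 6 d the difference was -0.44 ± 0.32 (SE; 95% interval -1.17 to 0.29, adjusted p = 0.640). Of the arrays with a doubtful label, this difference uses that of 6 d 1b but not those of Norm 1b and 4 d 1a. Both intervals include 0 and run past 1 on the log2 scale on one side, so a p above the threshold does not show equal levels. Each interval uses the spread of all groups, which was widest at 4 d (SD 0.79), the group that holds the doubtful array labelled 4 d 1a. The 6 vascular smooth muscle probe sets on A summed to 11883 to 13846 at 6 d and 16248 on the Norm array. They summed to 21326 to 24938 at 10 h and 23711 to 25395 at 2 d. Most of the 2 d sum was Acta2 (11138 to 11493) and Tagln (9312 to 10151), above their Norm values of 5726 and 5191. On A at 2 d Myh11 (885 to 1817) and Cnn1 (710 to 1082) lay below theirs (2527 and 1524). Over all array types 3 of the 10 tested probe sets of this list were higher at 2 d than in Norm and 7 lower. At 4 d the order of the A sums was opposite to that of Bdnf, with 21283 on 4 d 1a (Bdnf 1313) and 13489 on 4 d 1b (Bdnf 2835). Of the marker lists on A, only that of lymphocytes had both 6 d arrays below all others, at 3018 and 3326 against 3675 to 5212. The array labelled Norm had the highest A sums for skeletal muscle (10435 against 1047 to 8665) and cardiac muscle (17060 against 8881 to 12718). On C the skeletal muscle sums of Norm, 1532 and 2661, lay within those of the other groups (1456 to 3211). The part of these cells in the Bdnf values was not tested.

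Ntrk2, which encodes TrkB, had the signal that brought the set forward. Probe set 116425_at (B) read 3194 and 4573 in Norm, 3846 and 3347 at 10 h, 4010 and 3986 at 2 d, 554 and 407 at 4 d, and 5522 and 5855 at 6 d. Both 4 d arrays lay far below the 8 others, and both 6 d arrays lay above the 8 others. The 4 d minus Norm difference was -3.01 ± 0.20 (SE) on the log2 scale, or 8.05-fold lower at 4 d, with both 4 d arrays above the floor. On the log2 scale the higher 4 d array lay 2.53 below the lowest of the other arrays, and of the 8600 probe sets tested on B only 1, this one, had a gap that large. Both 4 d arrays lay below all others for 224 of those 8600 probe sets (2.6%). The low 4 d values chose the gene, so nothing is read from the gap, its rank or that share.

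**Figure D1:**
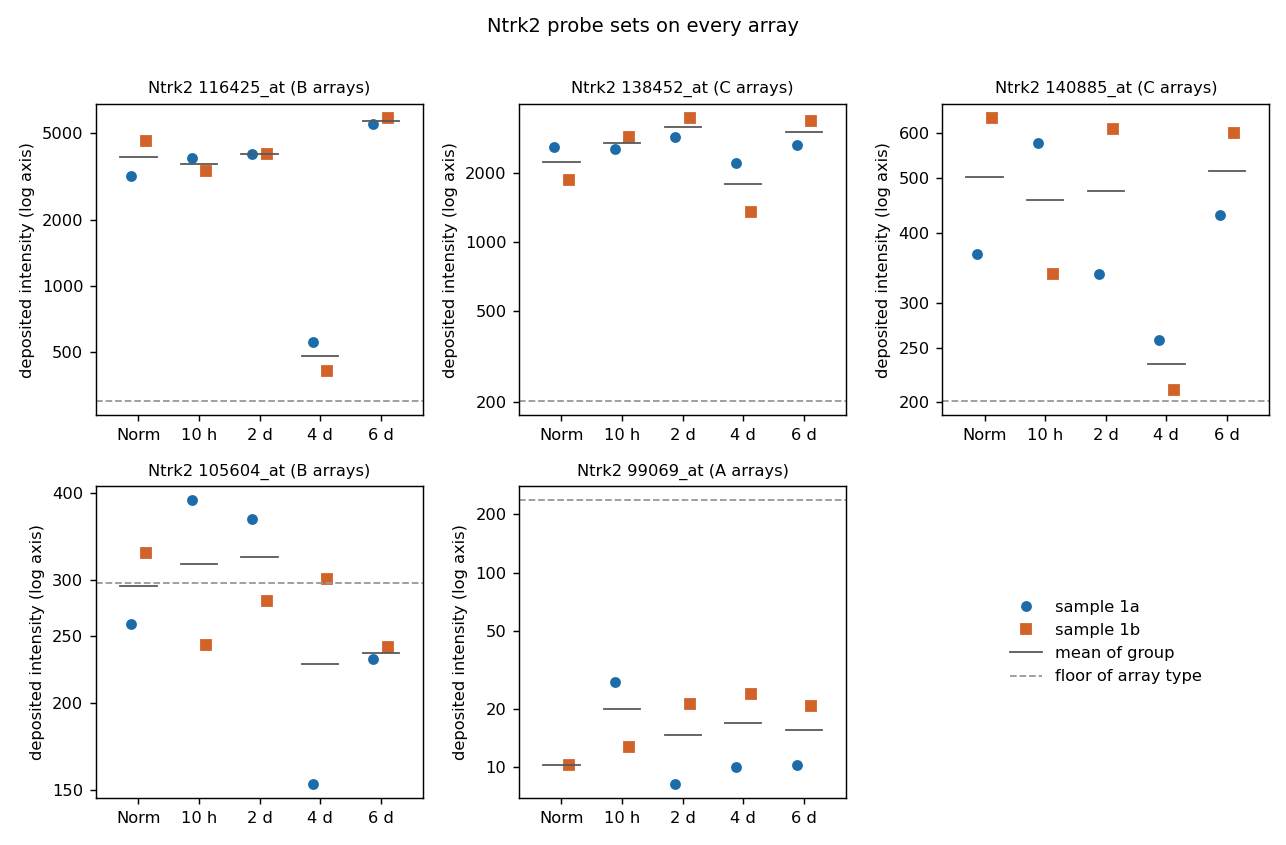
Deposited intensity (log axis) of the 5 Ntrk2 probe sets on every array, by group; circles are sample 1a, squares sample 1b, short lines the mean of the deposited intensities and dashed lines the floor of the array type. Probe set 116425_at read 554 and 407 at 4 d and 3194 to 5855 elsewhere, while 138452_at at 4 d (2211 and 1345) overlapped its Norm values.

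At 10 h and 2 d 116425_at was close to its level in Norm. Its mean log2 intensity was 11.90 ± 0.37 (SD, n = 2) in Norm, 11.81 ± 0.14 at 10 h and 11.96 ± 0.0060 at 2 d, 3 levels that lie within the spread of Norm. It then stood at 8.89 ± 0.31 at 4 d and at 12.47 ± 0.06 at 6 d. Against Norm the differences were -0.09, 0.06 and 0.57 (SE 0.20) at 10 h, 2 d and 6 d, given without a test. Both 6 d arrays lay above all others for 328 of the 8600 B probe sets (3.81%). The 6 d minus 2 d difference was 0.51 ± 0.20 (SE; 95% interval 0.05 to 0.97) and did not pass in limma (adjusted p = 0.332). The difference itself used neither Norm nor 4 d arrays. Its SE, interval and p used the spread of all groups, which was widest in Norm and at 4 d.

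The other Ntrk2 probe sets did not show the 4 d values of 116425_at to the same degree. Probe set 138452_at (C) was bright throughout and read 2577 and 1851 in Norm, 2530 and 2847 at 10 h, 2854 and 3464 at 2 d, 2211 and 1345 at 4 d, and 2644 and 3343 at 6 d. Its lowest array was also a 4 d array, but the other 4 d array lay between those of Norm. The difference from Norm was 0.30 at 10 h, 0.53 at 2 d, -0.34 at 4 d and 0.44 at 6 d (SE 0.27). Its 4 d difference of -0.34 compares with -3.01 for 116425_at from the same samples, and the difference between the probe sets was not tested. Its 6 d minus 2 d difference was -0.08 (95% interval -0.69 to 0.52, adjusted p = 0.983).

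Probe set 140885_at (C) was dim and variable, at 367 and 639 in Norm, 576 and 338 at 10 h, 338 and 610 at 2 d, 258 and 210 at 4 d, and 429 and 601 at 6 d. Both 4 d arrays lay below the 8 others, as they did for 224 of the 8809 probe sets tested on C (2.54%). The 4 d minus Norm difference was -1.05 ± 0.50 (SE), and those at 10 h, 2 d and 6 d were -0.13, -0.09 and 0.07. From 2 d to 6 d the difference was 0.16 (95% interval -0.96 to 1.28, adjusted p = 0.977), an interval too wide to set it apart from changes of over 1.5-fold in either direction.

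Probe set 105604_at (B) was near the floor, at 260 and 328 in Norm, 391 and 242 at 10 h, 368 and 280 at 2 d, 153 and 302 at 4 d, and 231 and 241 at 6 d. It was above the floor on 4 of 10 arrays, and its groups overlapped. The 4 d minus Norm difference was -0.06, and the 6 d minus 2 d difference was -0.15 (SE 0.16, adjusted p = 0.765). Both 6 d arrays and that of 2 d 1b were set to the floor, so this value is not a bound. TrkB is known to be made as a full-length receptor with a kinase and as shortened forms without one. Which of these forms each probe set reads was not analysed here.

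Marker sums and control ratios are set here beside the 4 d signal of 116425_at on the B arrays. The 2 B probe sets of the pericyte and fibroblast marker list, those of Cspg4 and Rgs5, summed to 431 and 722 at 4 d against 1370 to 1488 in Norm, 1060 to 1132 at 10 h, 1780 to 2145 at 2 d and 1953 to 1980 at 6 d. Of these 2 probe sets, 1 was above the floor on the array of 4 d 1a and 0 on that of 4 d 1b. Over the 10 B arrays that of Cspg4 was above the floor on 9 and that of Rgs5 on 4. On the A arrays the 16 probe sets of the same list summed to 36816 and 50214 at 4 d and to 35318 to 49568 elsewhere, so the groups overlapped there. The sum of 50214 is from the doubtful array labelled 4 d 1a. Much of the A sum came from collagen genes, Dcn (4801 to 10405) and Pdgfra, so it is no check on the 2 B probe sets. Pdgfrb, a defining receptor of pericytes, was above the floor on 9 of 9 A arrays, and the 2 A probe sets of Rgs5 on 4 and 0. The 3' to 5' ratio of the actin control on B was 0.0272 to 0.0427 at 4 d. It was almost as low at 10 h (0.0430 and 0.0522) and on Norm 1a (0.0453), where 116425_at read 3194 to 3846. On the remaining B arrays it was 0.474 to 4.98. The Gapdh ratio was 0.876 to 1.49 at 4 d and within the range of the other groups. The part of these values in the Ntrk2 signal was not tested.

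The genes whose B probe set followed 116425_at most closely over the 10 B arrays, by Pearson correlation of floored log2 values, were Ankrd37 (0.965), 3010003L21Rik (0.946), Tcim (0.931), Pde4b (0.919) and Rsad2 (0.919). The correlation is a description, since the 10 arrays include pairs from the same group and share their scaling. Ankrd37, an ankyrin repeat gene known to be induced by low oxygen in cultured cells, read 323 and 238 at 4 d and 1613 to 2753 elsewhere, with a median of 2550. Its 4 d minus Norm difference was -2.77 with 1 of the 4 d arrays under the floor, and without the 4 d arrays its correlation with 116425_at was 0.121 over 8 arrays. For Ankrd37 the likeness thus rested on the 4 d arrays.

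Tcim, a small regulator of transcription, read 640 and 610 at 4 d and 1009 to 1704 elsewhere, and kept a correlation of 0.881 without the 4 d arrays. Its 4 d minus Norm difference was -0.83, and that of its other tested probe set was -0.73. Pde4b, a phosphodiesterase that breaks down cAMP, differed by -1.07 at 4 d on this probe set and by 0.08 and -0.04 on its others. Rsad2, an interferon-induced antiviral gene, differed by -0.65 on this probe set and by 0.06 on its other. The unnamed gene 3010003L21Rik differed by -0.40. Without the 4 d arrays the correlations of these 3 genes were 0.603, 0.280 and 0.670. Only for Tcim did a second tested probe set of the same gene show a 4 d difference of like size, among the 3 of these genes that had a second one.

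**Figure D2:**
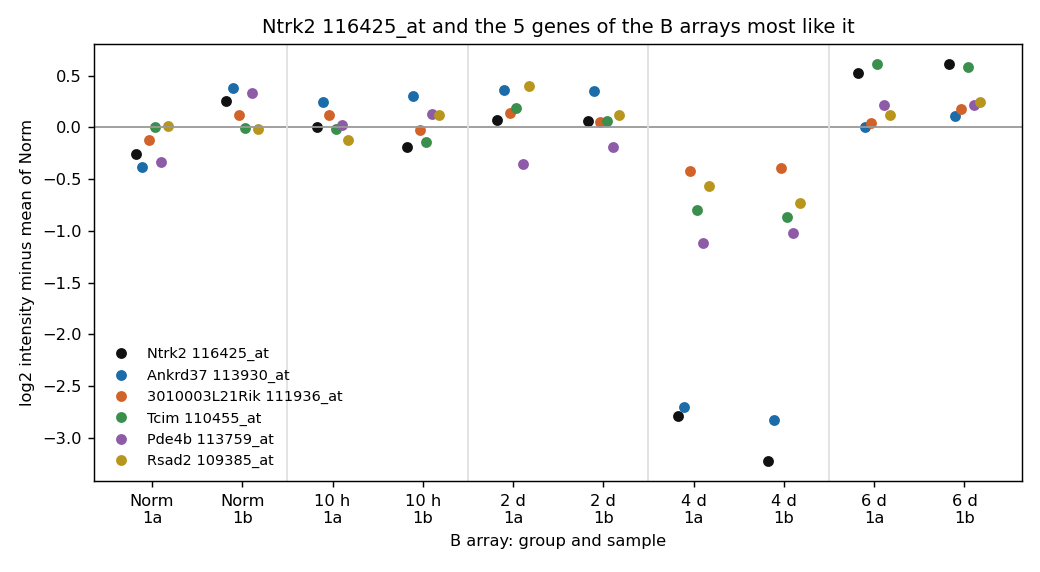
Log2 intensity minus the Norm mean on each of the 10 B arrays for Ntrk2 116425_at (black) and the 5 genes most like it; each point is 1 array. Ntrk2 and Ankrd37 lie close to 3 units down on both 4 d arrays, with mean differences of -3.01 and -2.77, and the mean differences of the other genes there run from -0.40 to -1.07.

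Ntrk3, which encodes TrkC, gave signals near the floor with no difference past the threshold. Probe set 106470_at (B) read 459 and 230 in Norm, 154 and 178 at 10 h, 453 and 492 at 2 d, 198 and 601 at 4 d, and 361 and 265 at 6 d. It was above the floor on 5 of 10 arrays, with both 10 h arrays under it and both 2 d arrays above it, and the 4 d arrays spanned the full range. Against Norm the difference was -0.31 at 10 h (adjusted p = 0.965), 0.35 at 2 d (adjusted p = 0.592), 0.19 at 4 d and -0.17 at 6 d (adjusted p = 0.940), all with an SE of 0.32. The 10 h value is not a bound, since Norm 1b was set to the floor as well. From 2 d to 6 d it was -0.53 (95% interval -1.24 to 0.19, adjusted p = 0.547).

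Probe set 114746_at of Ntrk3 (B) read 271 and 439 in Norm, 130 and 33.9 at 10 h, 293 and 150 at 2 d, 209 and 329 at 4 d, and 129 and 191 at 6 d. It was above the floor on 2 of 10 arrays, 1 of Norm and 1 of 4 d, so that the groups at 10 h, 2 d and 6 d have only an upper bound. The difference from Norm was -0.28 at these 3 times (SE 0.17, adjusted p = 0.910, 0.406 and 0.680) and -0.21 at 4 d. Norm 1a was set to the floor as well, so these differences are not bounds. The sign at 2 d was opposite to that of 106470_at, and neither probe set passed there.

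**Figure D3:**
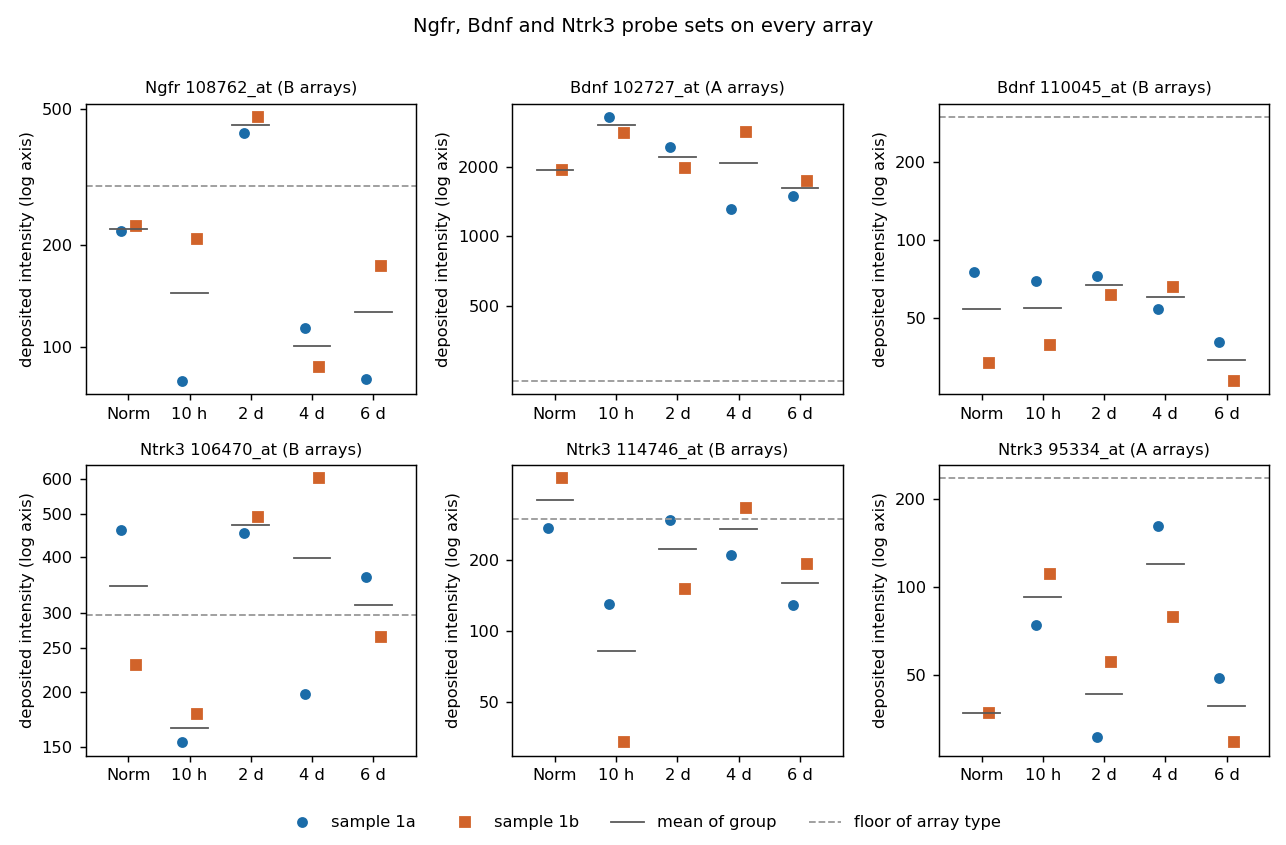
Deposited intensity (log axis) of the Ngfr, Bdnf and Ntrk3 probe sets on every array, by group; circles are sample 1a, squares sample 1b, short lines the mean of the deposited intensities and dashed lines the floor of the array type. Ngfr lies above its floor only on the 2 d arrays (426 and 473), Bdnf 102727_at lies far above its floor on every array, and Ntrk3 scatters about the floor.

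Ngfr, the p75 receptor, was above the floor only at 2 d. Probe set 108762_at (B) read 218 and 226 in Norm, 79.6 and 208 at 10 h, 426 and 473 at 2 d, 114 and 87.6 at 4 d, and 80.5 and 173 at 6 d. Both 2 d arrays lay above the 8 others, and all 8 others lay under the floor of 297.36. Against Norm the 2 d level was at least 0.59 higher on the log2 scale (SE 0.11), at least 1.51-fold. Ngfr entered the test only through these 2 d arrays, while the 8 others were all set to the same floor, so that it had to differ between groups to be tested at all. The fit's adjusted p of 0.0349 in limma is thus no independent support for the difference. Of the 4 member probe sets with a test against Norm, it was the 1 called at 2 d, and 480 of 25801 probe sets (1.86%) were called in that comparison, 200 higher and 280 lower. Nothing is read from that call. The 6 d minus 2 d difference was at least -0.59 in size (SE 0.11) and did not pass (adjusted p = 0.0843). It repeats the 2 d minus Norm difference with the sign turned, since Norm and 6 d were both set to the floor.

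The 2 d arrays stood apart for many other B probe sets, with both 2 d arrays above all others for 1287 of 8600 (15%). On the B arrays the Gapdh ratio was 3.64 to 4.60 at 2 d and 0.786 to 1.58 at the other times. Ngfr is also a marker of Schwann cells, and the B probe sets of the Schwann and nerve sheath list other than Ngfr, those of Sox10 and Ncam1, summed to 2498 and 3068 at 2 d. Nearly all of this was the Sox10 probe set (2448 and 3030 at 2 d), since the Ncam1 probe set was under the floor on all 10 B arrays. The sums were to 1756 to 2152 in Norm, 1838 to 1945 at 10 h, 1831 to 1869 at 4 d and 1861 to 1889 at 6 d. On A the 13 probe sets of that list summed to 10501 to 12780 with overlapping groups, on C its 4 probe sets to 382 to 1112, and 1 of its 11 tested probe sets, Ngfr itself, was called at 2 d. Other members of the list were at their lowest at 2 d on A, a probe set of Mbp at 860 to 927 against 930 to 1715 elsewhere and 1 of Erbb3 at 1287 to 1371 against 1545 to 2482. Of the neuron list 0 of 9 tested probe sets were called in limma at 2 d, 8 were higher there than in Norm, and their median difference was 0.31. Its 2 C probe sets summed to 2921 and 2567 at 2 d and to 1781 to 2398 elsewhere. The neuronal genes Snap25, Prph, Nefm and Nefh were under the floor on every array that measured them, while a probe set each of Tubb3, Uchl1, Stmn2, Gap43, Syn1 and Nefl was above it on all. The part of RNA integrity and of nerve sheath RNA in the Ngfr value was not tested. The call was lost under several other settings, among them a lower floor at the 20th percentile (adjusted p = 0.232) and the fit to the 2 groups alone (adjusted p = 0.189). It was also lost without any 1 of the samples Norm 1a, Norm 1b, 10 h 1a, 10 h 1b, 4 d 1b, 6 d 1a and 6 d 1b (adjusted p between 0.0511 and 0.0780).

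**Figure D4:**
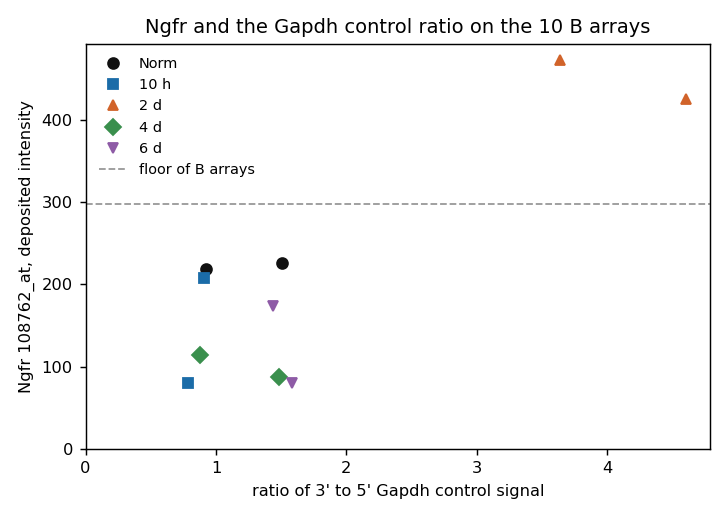
Deposited Ngfr intensity on the 10 B arrays against the 3' to 5' ratio of the Gapdh control on the same array, with 1 symbol for each group and the floor as a dashed line. The 2 d arrays have both the highest ratios (3.64 and 4.60) and the highest Ngfr values (426 and 473), and the other 8 arrays lie at ratios of 0.786 to 1.58 and under the floor.

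At 10 h and 6 d no probe set was called. In limma 0 of 25801 probe sets were called at 10 h (0%) and 0 at 6 d (0%), against 1577 (6.11%) and 2365 (9.17%) with an unadjusted p under 0.05. Of the 4 tested probe sets of Ntrk3, Ngfr and Bdnf, 0 passed at either time, adjusted or not. For 6 d minus 2 d, 16 of 25801 probe sets (0.062%) were called, 8 in each direction, and 3360 (13%) had an unadjusted p under 0.05. The 8 member probe sets gave 0 calls there and 2 unadjusted, Ntrk2 116425_at (higher at 6 d) and Ngfr (lower at 6 d). For Ngfr this repeats the 2 d minus Norm result, as Norm and 6 d were both at the floor, and nothing is read from it. The median difference of all tested probe sets was 0 in each of these comparisons. Comparisons with Norm share the Norm arrays, so the values are set side by side without a measure of their likeness.

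**Figure D5:**
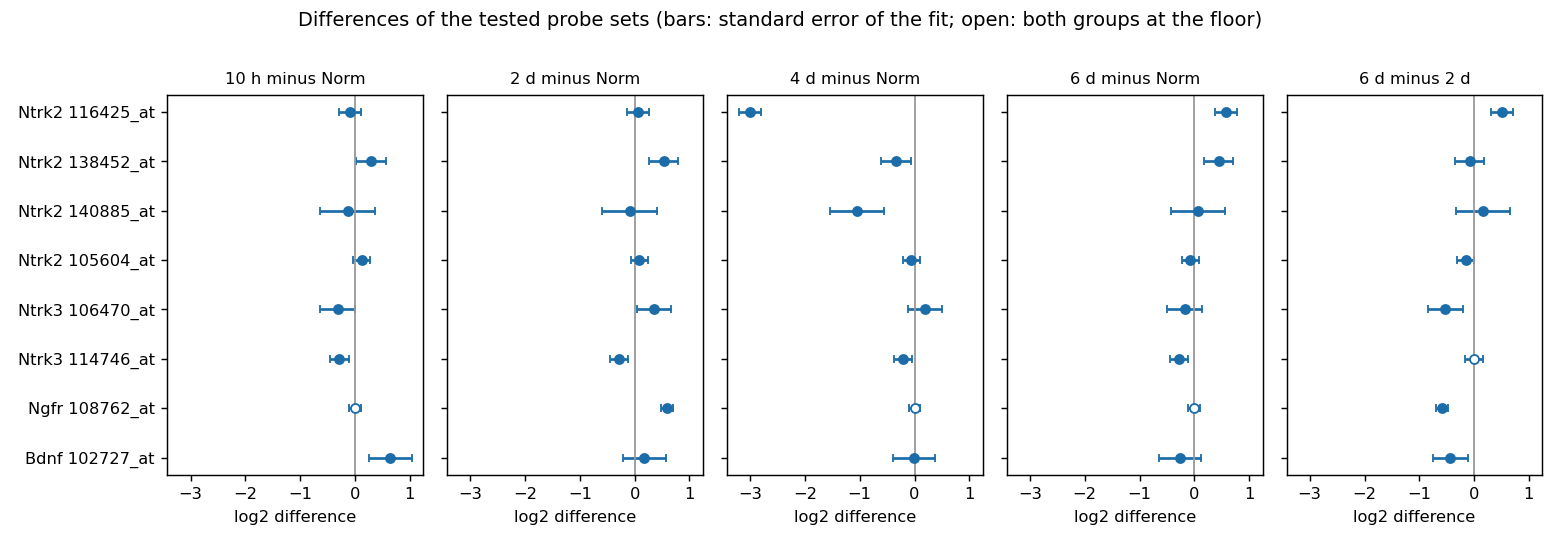
Log2 difference of each tested member probe set in 5 comparisons, with bars of the standard error of the fit; open circles mark comparisons in which both groups lay at the floor. Ntrk2 116425_at at 4 d (-3.01) stands away from all other points, the next being Ntrk2 140885_at at 4 d (-1.05).

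The other genes of the pathway, 106 genes on 6 lists, had 142 tested probe sets for 78 genes. In limma 0 were called at 10 h, 2 at 2 d (1.41%, near the 1.86% of all probe sets), 0 at 6 d and 0 for 6 d minus 2 d, against 5, 22, 20 and 16 with an unadjusted p under 0.05. Those shares of 3.52%, 15.5%, 14.1% and 11.3% stand beside 6.11%, 18.9%, 9.17% and 13% of all probe sets. Their median differences were 0.08, -0.05, 0.03 and 0.01 on the log2 scale in the same order, beside 0 for all probe sets. The lists were written with earlier results of these data known.

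Among 7 probe sets of ligands and other receptors, 3 were higher and 4 lower at 2 d, and 1 of the higher ones passed. This was Lingo1 105922_at, whose protein joins p75 in the Nogo receptor complex, at 1751 and 1819 at 2 d and 783 to 1200 on the other 8 arrays. The difference was 1.10 ± 0.20 (SE; adjusted p = 0.0367 in limma), and its other tested probe set, 130534_i_at on C, gave -0.01. Ntf5, the gene of neurotrophin-4 and a further TrkB ligand, gave -0.08, -0.09 and 0.39 at 10 h, 2 d and 6 d, with adjusted p-values of 1, 0.913 and 0.732. That probe set, 131253_f_at, may share probes with other transcripts, as its suffix marks. Sort1, the co-receptor of p75 for proneurotrophins, gave 0.15 and -0.14 at 2 d on its 2 probe sets (adjusted p = 0.710 and 0.848).

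None of the 16 probe sets for processing of proneurotrophins passed in any comparison. Pcsk5, a proprotein convertase, gave 1.48 at 2 d on 1 of its probe sets (adjusted p = 0.0766) and 0.49 and 0.54 on the others, and Mmp3, a metalloprotease that can cut proneurotrophins, gave -1.22 from 2 d to 6 d (adjusted p = 0.0843). Of 33 probe sets for adaptors and scaffolds at Trk receptors, 0 passed, with Plcg1, the phospholipase that binds activated TrkB, at 0.73 at 6 d on 107396_at (adjusted p = 0.241) and at -0.46 on its other tested probe set. The docking protein Gab1 gave 0.80 and 0.49 from 2 d to 6 d on its 2 probe sets (adjusted p = 0.149 and 0.270). Of 11 for adaptors at p75, 0 passed, with Sqstm1 at -0.58 at 2 d (adjusted p = 0.102) and Prdm4, a zinc finger partner of p75, at 0.63 at 10 h (adjusted p = 0.637) and 0.12 on its other probe set. The list medians at 2 d were 0.30, -0.11 and 0.22 in the same order.

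Of 58 probe sets for downstream kinases and factors, 0 passed. The smallest p belonged to Mapk9, a JNK kinase, at -2.20 at 2 d on 138075_at (adjusted p = 0.0520), while its other probe sets gave 0.02 and -0.17. Pik3ca, the catalytic subunit of a PI3 kinase, gave 0.96 at 6 d on 1 of its probe sets (adjusted p = 0.362) and 0.38, 0.43 and 0.10 on the others. Of 17 probe sets for genes known to be induced by neurotrophins, 9 were higher and 8 lower at 2 d, and 1 passed, Spry2, which damps signals from receptor tyrosine kinases. Spry2 116938_at read 1513 and 1758 at 2 d, 4183 and 6016 in Norm, and 3069 to 11225 on the remaining arrays, so the 2 d values were its lowest. The difference was -1.62 ± 0.30 (SE; adjusted p = 0.0361). Egr1 and Fos, early response genes of the same list, gave 0.77 and 0.94 at 10 h (adjusted p = 0.747 and 0.897) and -0.79 and -0.88 at 6 d (adjusted p = 0.464 and 0.666). Both calls of the pathway lists fell at 2 d, where the Gapdh ratio also stood apart, and its part in them was not tested.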

How the data were processed

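RNA of whole mouse lung was measured on 3 types of array in 5 groups of 2 samples. The deposited values are probe set intensities on a linear scale, from software not given in the sources used here. After trimming 2% at each end, their mean was 800.2 to 800.4 on every array used, so they were taken as already scaled. Values were floored at the 40th percentile of the array type and log2 was taken. Group means were fitted to all arrays of a type with limma 3.58.1 under R 4.3.3 (eBayes with a trend), and p-values, two-sided, were adjusted by Benjamini-Hochberg over 25801 probe sets together, with a threshold of 0.05. The procedure was checked on simulated data. The number of arrays limits the precision.

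Named were every probe set of the members, the 5 genes most correlated with the brightest Ntrk2 probe set, and of each pathway list the genes that passed or, with none, the 2 of smallest p. Ntf5, Sort1, Egr1 and Fos and the genes of the marker lists named beside a result were chosen after their values were seen. The members and lists were chosen with earlier results of these data known. Symbols came from the platform annotation, which can be old. It gives 1 symbol to 10855 of 12488 probe sets on A, 10603 of 12477 on B and 7739 of 11934 on C. Samples with the same letter did not deviate together: correlations of their deviations lay between -0.158 and 0.134 on B and between -0.108 and 0.0574 on C, so letters were not taken as pairs. Alternatives changed the floor, the filter, the scaling, the trend, the groups fitted, the adjustment, and each sample in turn.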

Additional observations from a re-analysis of the deposited data

Results flagged for a closer look

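Bdnf 102727_at and Ntrk2 116425_at met a rule that asks for every array of one time to lie above the Norm values and every array of another time below them. The rule was applied to the tested member probe sets alone. The share of all probe sets that meet it is not known, so nothing is read from meeting it. For Bdnf the 10 h arrays lay above and the 6 d arrays below, with a difference between the times of 0.91 on the log2 scale. The 2 d arrays also lay above Norm, 0.44 from those of 6 d. Both rest on the single A array labelled Norm and use that of 6 d 1b, and both of these labels are in doubt. The difference between 10 h and 6 d was not tested, and that between 2 d and 6 d did not pass in limma (adjusted p = 0.640).

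For Ntrk2 116425_at both 6 d arrays lay above and both 4 d arrays below the Norm arrays, 3.58 apart on the log2 scale. This difference was not tested, since the 4 d values brought the gene forward.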

How the results depend on the processing

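Each of the tested values was recomputed under up to 21 other settings, of which 2 were added after seeing the data (no floor, and leaving out the A arrays). The 4 d minus Norm difference of Ntrk2 116425_at stayed between -3.27 and -2.75. Its 6 d minus 2 d difference stayed between 0.47 and 0.57, with adjusted p-values of 0.164 to 0.760. The Ngfr call at 2 d was lost with the floor at the 20th percentile (1.01, adjusted p = 0.232), no trend (0.59, 0.0714), the fit to the 2 groups alone (0.59, 0.189), the replicate block (0.59, 0.0620) and no floor (1.01, 0.454). With 1 sample left out the value was 0.52 to 0.67 and the call was lost in 7 of 10 cases. Ngfr was not tested when 5 arrays had to lie above the floor. The count of members called at 2 d was then 0 in place of 1 under these 6 settings and 0 or 1 with a sample left out. For 6 d minus 2 d it was 1 in place of 0 (Ngfr) with no filter and with adjustment within an array type, and 0 to 1 with a sample left out. The counts at 10 h and 6 d stayed 0 in all 21 settings. With a sample left out the 6 d minus 2 d difference of Ntrk2 138452_at turned to 0.06 (without 2 d 1b) and 0.088 (without 6 d 1a), within -0.25 to 0.088. That of 140885_at turned to -0.26 (without 2 d 1a) and -0.08 (without 6 d 1b), within -0.26 to 0.59. Ntrk3 106470_at at 6 d turned to 0.14 without Norm 1a, within -0.49 to 0.14. The cause was not tested. The count of all probe sets called was 0 to 73 at 10 h, 0 to 733 at 2 d, 0 to 63 at 6 d and 0 to 100 for 6 d minus 2 d. Under the replicate block it was 217 at 2 d and 2 for 6 d minus 2 d. Without Norm 1b the A comparisons with Norm could not be fitted. Signal near the floor limits Ngfr to bounds. For Ntrk3 and Ntrk2 105604_at it leaves differences of partly floored values, which are not all bounds.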
